A study of Rattus norvegicus with 12 samples.

Results

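The comparison between the dried snail mucus gel of *Achatina fulica* (d-SMG) and the commercial alginate dressing (Alg) used 6 of the 12 RNA sequencing libraries of the study, namely the d-SMG and the Alg libraries of day 3, 7, and 14, each compared with the library of the same day. All 6 came from wound tissue on the back of male SD rats made diabetic with streptozotocin, which were given a full-thickness circular wound, so that the wound, the diabetes, and the strain were shared by both groups. The d-SMG group received the freeze-dried mucus and the Alg group the dressing, which served as the positive control. The saline control and the glycosaminoglycan of the mucus (GAG) make up the other 6 libraries. No comparison was made with them. They are given as background for the tissue shares, and they entered 1 alternative fit of the test, that of all 12 libraries. There was 1 library per group and day, the labels do not say whether a library holds 1 animal or several, and streptozotocin, which destroys beta cells, models a lack of insulin. A difference on a single day therefore has no replicate check. The day serves as the replicate in the comparison over all days, so that a difference that depends on the day counts there as spread.

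Wound repair in the skin passes from inflammation, in which neutrophils and then macrophages clear the wound, to the growth of collagen-rich granulation tissue with new vessels, and to re-epithelialization by keratinocytes that migrate from the wound edge and from hair follicles. Keratinocytes of the basal layer carry KRT5 and KRT14 and switch to KRT1, KRT10, and the proteins of the cornified envelope as they differentiate. In the rat a thin sheet of skeletal muscle, the panniculus carnosus, lies under the dermis. In bulk samples, fewer cells of a type and less RNA per cell cannot be told apart.

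The 6 libraries held 13748887 to 18613866 reads on genes, with scaling factors from TMM (the trimmed mean of M values) of 0.711 to 1.19, the lowest in the d-SMG library of day 3. After this scaling, a gene at the same level in both libraries of a day would have 0.598, 1.45, and 0.977 times as many reads with d-SMG as with Alg on day 3, 7, and 14, respectively. Ratios below are scaled in this way, whereas reads are as counted. The d-SMG library of day 3 stood apart. The basal keratin *Krt14* had 263 and 106704 reads in the d-SMG and the Alg library of day 3 (this order is kept below), *Krt5* had 98 and 44408 reads, and the suprabasal keratin *Krt1* had 15 and 2238 reads. Markers of epidermis were therefore nearly absent from a library labeled as skin, whereas the dermal collagen gene *Col1a1* had 19698 and 59529 reads there. The labeled tissue was checked with a list of genes of skin, whose median log2 ratios were -1.81, 0.16, and -0.42 on the 3 days. The count of the edgeR test and that of genes past 2-fold on all 3 days are given below also without day 3.

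To show the regulatory sequence of gene groups described below, 4 promoters are printed, 1 each for muscle, hair shaft, antigen presentation, and cholesterol synthesis. Each run holds the 250 bases before the RefSeq start site (build GRCr8, read on the strand of the gene, 5′ to 3′). Capitals mark CANNTG (the E-box bound by MyoD) in *Acta1*, which encodes skeletal actin (chr19:68784195-68784444, minus strand), CTTTG (the core bound by LEF1 and TCF) in the hair keratin *Krt85* (chr7:134515787-134516036, minus strand), and CCAAT (the box bound by NF-Y) in the class II chain *RT1-Bb* (chr20:4604119-4604368, minus strand) and in *Hmgcs1*, which encodes HMG-CoA synthase (chr2:53382054-53382303, plus strand).
Acta1: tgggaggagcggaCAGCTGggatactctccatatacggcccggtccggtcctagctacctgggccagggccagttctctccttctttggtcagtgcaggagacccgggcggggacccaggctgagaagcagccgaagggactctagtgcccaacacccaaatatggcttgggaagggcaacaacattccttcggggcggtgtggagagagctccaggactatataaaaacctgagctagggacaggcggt
Krt85: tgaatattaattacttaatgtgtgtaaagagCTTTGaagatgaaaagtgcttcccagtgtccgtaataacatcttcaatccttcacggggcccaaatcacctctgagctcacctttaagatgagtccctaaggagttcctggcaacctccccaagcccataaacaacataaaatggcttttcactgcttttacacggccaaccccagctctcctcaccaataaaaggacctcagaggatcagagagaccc
RT1-Bb: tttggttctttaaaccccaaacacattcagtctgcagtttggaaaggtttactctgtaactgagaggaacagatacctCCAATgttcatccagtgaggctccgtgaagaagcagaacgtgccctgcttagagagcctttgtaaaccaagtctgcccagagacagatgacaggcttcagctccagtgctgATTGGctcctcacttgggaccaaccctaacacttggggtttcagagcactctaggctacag
Hmgcs1: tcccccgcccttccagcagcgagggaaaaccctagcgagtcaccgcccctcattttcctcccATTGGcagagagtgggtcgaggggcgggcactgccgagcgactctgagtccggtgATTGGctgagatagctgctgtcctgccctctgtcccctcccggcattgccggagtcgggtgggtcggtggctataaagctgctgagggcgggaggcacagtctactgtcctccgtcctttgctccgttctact

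Both strands were searched, and matches of different motifs may overlap. CANNTG was found in 16 of the 18 promoters of shared muscle genes that the table holds, in 7 of 10 of fast isoforms, in 8 of 8 of slow isoforms, and in 7 of 11 of muscle regeneration genes, against 65.2% of 27457 promoters. CTTTG was found in 7 of 8 promoters of hair shaft keratins, 6 of 11 of the inner root sheath list, and 3 of 9 of hair follicle regulators, against 48.1% of all promoters. CCAAT was found in 8 of 12 promoters of the antigen presentation list and in 11 of 13 promoters of cholesterol synthesis genes, against 34.3% of all promoters. The sterol element TCACNCCAC was in none of these 13 windows and in 0.976% of all promoters, and GAGGAA, the core bound by PU.1, was in 3 of the 6 promoters of the genes that were higher with d-SMG on all 3 days, against 23.2% of all promoters. These matches are descriptions of letters and not binding sites.

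Tissue composition was described first, by the share of reads on marker genes. Skeletal muscle genes took 23.2% of the reads in the d-SMG library of day 3, but 0.992% on day 7 and 1.34% on day 14. In the Alg libraries the share was 6.26%, 17.8%, and 1.76% on the same days. Thus d-SMG was higher on day 3, Alg on day 7, and both were low on day 14. The controls had 7.81% to 10.8% and the GAG libraries 6.30% to 12.7%. Basal keratinocyte genes took 0.00822%, 1.11%, and 2.40% of the reads with d-SMG and 1.11%, 1.51%, and 1.65% with Alg. Apart from the d-SMG library of day 3, all 5 libraries lay between 1.11% and 2.40%. Hair genes took 0.00197%, 0.407%, and 0.537% of the reads with d-SMG and 0.357%, 0.0493%, and 5.001% with Alg. For hair genes the controls had 0.00436%, 0.00939%, and 0.273% and the GAG libraries 1.24%, 0.894%, and 0.523%. A very low hair share was thus not particular to the d-SMG library of day 3, and the Alg library of day 14 was the highest of the 12. The share of cornified layer genes was lower with d-SMG than with Alg on every day, namely 0.000631%, 0.0555%, and 0.0486% against 0.0479%, 0.0653%, and 0.490%. Macrophage and monocyte genes (the myeloid set) took 0.306%, 0.780%, and 0.233% of the reads with d-SMG and 0.219%, 0.129%, and 0.420% with Alg. The mean difference between d-SMG and Alg was -0.111 ± 16.9 percentage points for muscle and -0.166 ± 0.239 for the cornified layer (SD, 3 pairs). In the exact two-sided sign-flip permutation test over the 3 pairs the p-value was 1 for muscle, 0.25 for the cornified layer, and 0.75 for the basal, hair, and myeloid sets, where 0.25 is the smallest value that 3 pairs allow, and adjusted over these 5 exact tests the lowest was 0.938. No share could therefore pass the threshold. The intervals of Clopper and Pearson (95%), which cover the counting error only, ran from 23.18% to 23.22% for the muscle share and from 0.000517% to 0.000763% for the cornified share of the d-SMG library of day 3.

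**Figure D1:**
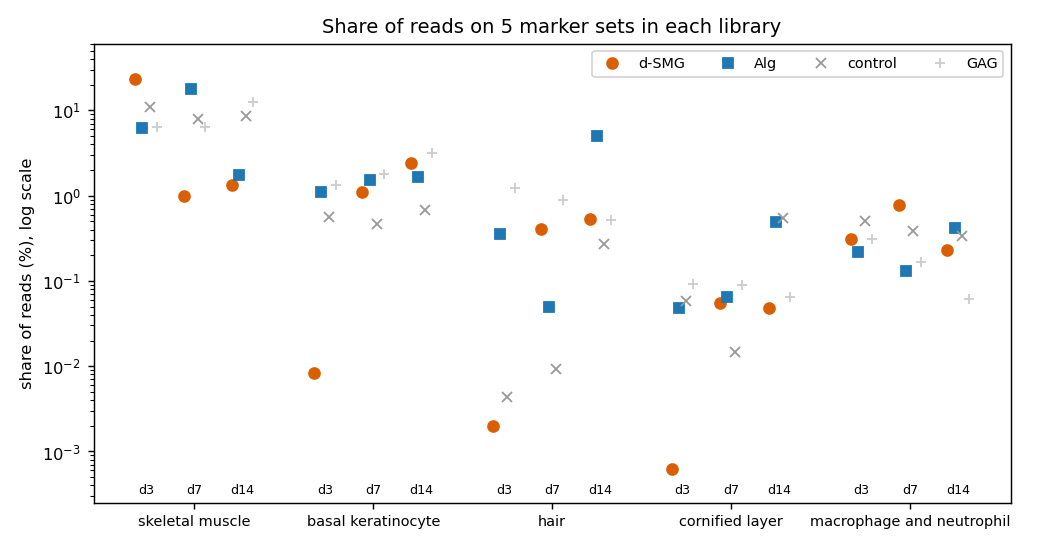
Share of reads (percent, log scale) on 5 marker sets in each of the 12 libraries, with d3, d7, and d14 marking the day and 1 symbol per library. The set labeled macrophage and neutrophil holds the macrophage and monocyte list and not the neutrophil list. The d-SMG library of day 3 (orange circle) is highest for muscle at 23.2% and lowest for the basal keratinocyte set at 0.00822%.

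Over the 3 days, 0 of 14928 genes (0%) differed between d-SMG and Alg by the quasi-likelihood method of edgeR, in a model of treatment that allowed for the day, at an FDR of 0.05, and the smallest adjusted p-value was 0.999934. At an unadjusted p under 0.05 there were 159 genes, 86 higher and 73 lower with d-SMG. These were 1.07% of the genes tested, a smaller share than the threshold alone would give if no gene differed. Without day 3 the test also called 0 of 14998 genes, with 331 at an unadjusted p under 0.05. That fit has fewer residual degrees of freedom than the full one, so its 0 is a weak check. DESeq2 on the same 6 libraries called 8 genes, and it was not run without day 3. *Lilrb3* was higher, and *Krt78*, *Krt1*, *Krt10*, *Flg*, and *Loricrin* of the differentiating epidermis, *Myl2* of slow muscle, and 1 gene with a provisional symbol were lower. The adjusted p-values of DESeq2 ran from 0.000173 for *Krt78* and *Myl2* to 0.034 for *Loricrin* and the gene with a provisional symbol. In the d-SMG library of day 3, where epidermal markers were nearly absent, *Krt78*, *Krt1*, and *Flg* had 14, 15, and 3 reads. How far the DESeq2 calls rest on that library was not tested.

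Leaving out provisional symbols, of which 2 ranked among them, the 10 genes with the smallest p-values in the higher direction were *Lilrb3*, *Rgs1*, *Clec12a*, *Ccr2*, *Ccl5*, *Ncam1*, *Pstpip1*, *Tfpi2*, *Cldn15*, and *Il21r*, all with an adjusted p of 0.999934 in edgeR. *Lilrb3* on chromosome 1 (the tables give no position or build), an inhibitory receptor of myeloid cells, had 249, 195, and 356 reads in the d-SMG libraries and 116, 37, and 107 reads in the Alg libraries. Its log2 ratio was 1.84 [1.52 to 2.17] on day 3, 1.86 [1.35 to 2.41] on day 7, and 1.77 [1.45 to 2.09] on day 14, where brackets hold the 95% interval of the counting error as above. The 3 intervals overlapped. Over the days its log2 difference was 1.82 ± 0.28 (SE). *Ccr2*, the receptor that brings monocytes from the blood into tissue, had 486, 1351, and 765 reads against 342, 164, and 344 reads, and its log2 difference was 1.64 ± 0.38. *Ccl5*, a chemokine for T cells and monocytes, had 6, 45, and 50 reads against 1, 3, and 16 reads, and *Ncam1*, an adhesion molecule of nerve and of regenerating or denervated muscle, had 1884, 1730, and 562 reads against 1497, 726, and 242 reads. Every d-SMG library was above the Alg library of its day for these 4 genes once scaled, and *Ccl5* rested on 1 to 16 reads in the Alg libraries. The genes were picked by a test in which the days are the replicates. Their likeness across days therefore follows from the choice and is no further evidence. *Cldn15*, a tight junction protein, likewise had few reads, with 15, 19, and 12 reads against 4, 4, and 2 reads.

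In the lower direction, where 1 provisional symbol had the third smallest p-value and was left out, the 10 genes were *Lce1m*, *Hal*, *Krt77*, *Myl2*, *Tecta*, *Lao1*, *Krt78*, *Slc30a2*, *Obp3*, and *Abca8a*. *Hal*, the histidase that makes urocanic acid in the cornified layer, had 2, 20, and 22 reads against 41, 52, and 163 reads, and its log2 difference was -2.66 ± 0.50. *Krt77*, a suprabasal keratin, had 2, 7, and 8 reads against 19, 24, and 186 reads. *Lce1m*, a late cornified envelope gene with close copies whose reads may be shared, had 0, 3, and 1 reads against 14, 23, and 54 reads. These genes were low in every d-SMG library compared with Alg, as the choice by p-value favors, and with few reads. *Myl2*, the light chain of slow and cardiac muscle, had 7, 5, and 0 reads against 118, 846, and 17 reads, and was thus lower on every day, unlike the muscle genes below. *Obp3*, a lipocalin with close copies, had 849, 2006, and 1537 reads against 4760, 2207, and 7927 reads, and *Slc30a2*, a zinc transporter, had 468, 69, and 77 reads against 1311, 127, and 334 reads.

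Genes past 2-fold in the same direction on all 3 days, with at least 50 reads in the 2 libraries of each day, numbered 6 higher (0.0475% of 12641) and 14 lower (0.111%). On day 3, 7, and 14 alone, 1387, 1248, and 676 genes were past 2-fold higher and 1573, 1239, and 962 lower. Whether more genes passed on all 3 days than unrelated days would give was not tested. The 6 higher genes were *Lilrb3*, *Clec4a*, *Ccr2*, *Lyc2*, *Rgs1*, and *Clec12a*. *Clec4a* and *Clec12a* encode inhibitory C-type lectins of myeloid cells, and *Rgs1* encodes a regulator of G-protein signaling in lymphocytes and other leukocytes. *Clec12a* had 273, 434, and 269 reads against 171, 138, and 109 reads, *Rgs1* had 172, 418, and 242 reads against 98, 129, and 94 reads, and *Clec4a* had 44, 59, and 59 reads against 30, 17, and 25 reads. *Lyc2* encodes a lysozyme whose reads may be split with *Lyz2*, and had 46, 1249, and 145 reads against 34, 23, and 17 reads, that is a ratio of 2.26-fold on day 3, 37.5-fold on day 7, and 8.73-fold on day 14. The log2 ratios of *Clec4a* were 1.29, 1.26, and 1.27, so that it and *Lilrb3* varied less from day to day than *Lyc2*. When only 2 of the days had to pass, 77 genes were higher without day 3, 74 without day 7, and 73 without day 14.

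The 14 lower genes were *Krt78*, *Eps8l1*, *Fads2b*, *Flg*, *Lhfpl1*, *Krt1*, *Dmkn*, *Tgm3*, *Wnt3*, *Il36rn*, *Pou2f3*, *Mtarc1*, *Evpl*, and 1 gene with a provisional symbol. Of these, *Krt1*, *Flg*, and *Tgm3* are in the list of suprabasal and cornified envelope genes. *Krt78* on chromosome 7 had 14, 698, and 132 reads against 1818, 1999, and 3502 reads, and its log2 ratio was -6.28 [-7.15 to -5.53], -2.05 [-2.18 to -1.93], and -4.70 [-4.96 to -4.44] on day 3, 7, and 14, respectively. It was the lone gene past 4-fold in the same direction on all 3 days, among 49 that were past 4-fold on every day. *Flg*, which encodes the precursor of filaggrin, had 3, 160, and 50 reads against 289, 265, and 854 reads. *Dmkn*, a secreted protein of the suprabasal layers, had 3, 1498, and 1680 reads against 1500, 2372, and 4184 reads. *Tgm3*, the transglutaminase that cross-links the cornified envelope and the hair, had 0, 161, and 215 reads against 216, 369, and 487 reads, so that it was at least 43.1-fold lower on day 3, a bound set against 3 reads. *Il36rn*, the antagonist of the IL-36 receptor, had 0, 38, and 75 reads against 55, 54, and 169 reads, and *Wnt3* had 0, 75, and 56 reads against 68, 110, and 128 reads. Values on day 3 rest on the library that lacked epidermal markers, and on day 7 the differences of *Krt1* (log2 -1.21), *Flg* (-1.26), and *Dmkn* (-1.20) were just past 2-fold. Without day 3, 122 genes were lower on both other days, against 218 without day 7 and 245 without day 14.

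**Figure D2:**
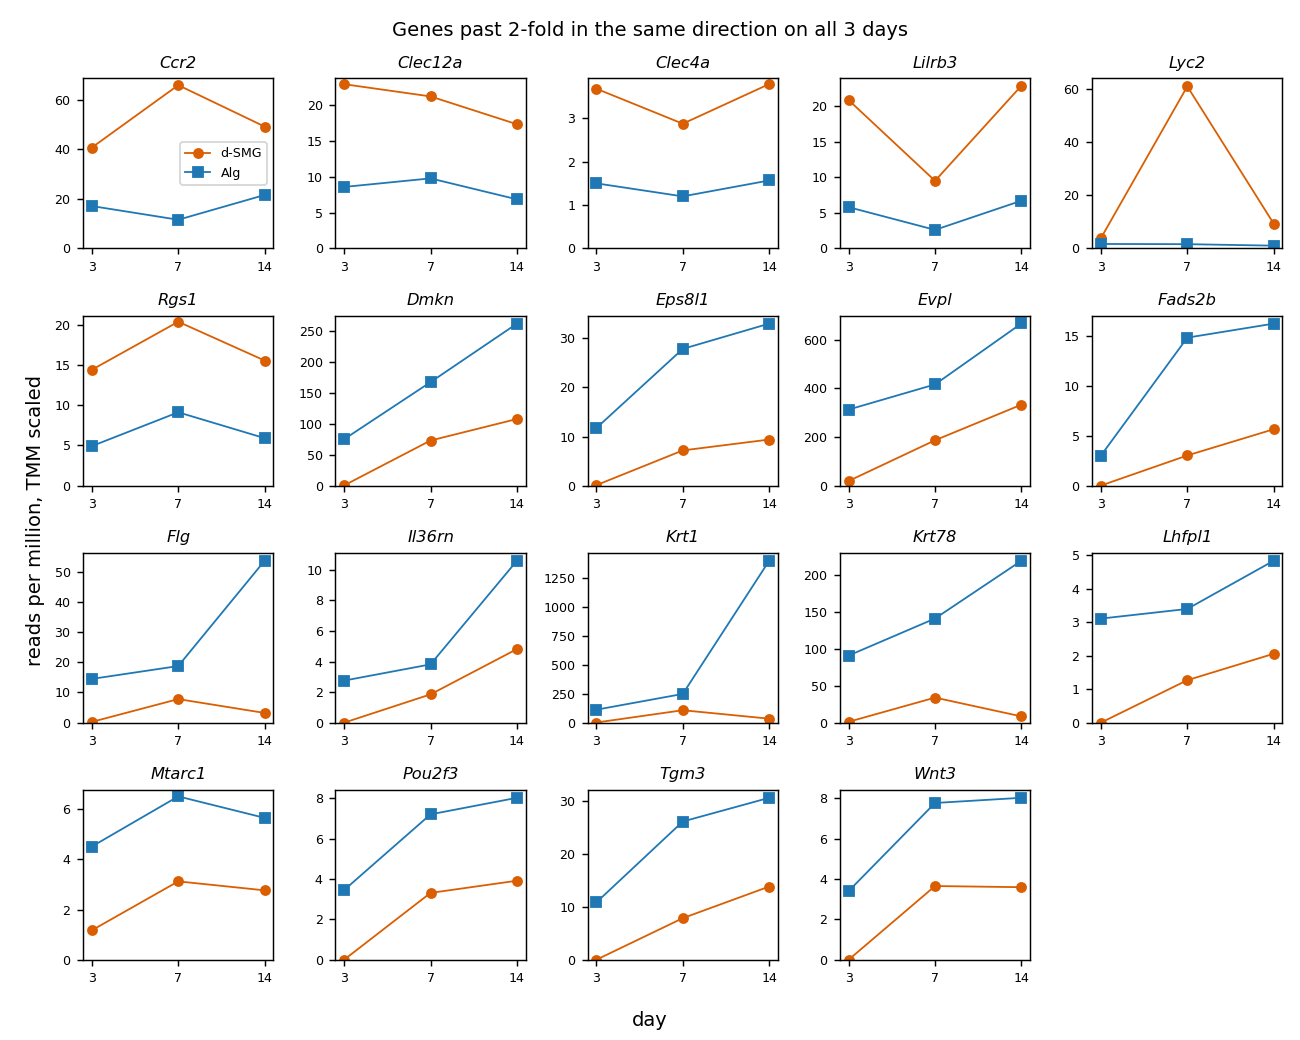
TMM-scaled CPM (each axis starts at 0) on day 3, 7, and 14 for the genes past 2-fold in the same direction on every day, d-SMG as orange circles and Alg as blue squares, 1 library per point. The first 6 panels are the genes higher with d-SMG, in which the circles lie above the squares on all 3 days, and the others are 13 of the 14 lower with d-SMG, without the provisional symbol.

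On single days many more genes stood apart. Past 4-fold, with at least 50 reads in the 2 libraries and a prior of 0.5 reads, were 393 genes higher (2.97% of 13238) and 773 lower (5.84%) with d-SMG on day 3. On day 7 there were 204 higher (1.51% of 13502) and 467 lower (3.46%), and on day 14 there were 114 higher (0.861% of 13242) and 249 lower (1.88%). Scaling by library size alone, which shifted the median of all genes by -0.58 on day 3 and 0.42 on day 7 on the log2 scale, gave 212 higher and 1097 lower on day 3 and 417 higher and 364 lower on day 7. FPKM with 0.1 added gave 199 higher and 891 lower on day 3 and 318 higher and 332 lower on day 7. The genes differed in direction between days. Of the 330 genes past 4-fold on both day 3 and day 7, which are 28.3% of those of day 3 and 49.2% of those of day 7, 41 had the same direction and 289 the opposite. Of the 112 genes shared by day 3 and 14, 68 had the same direction, and of the 92 shared by day 7 and 14, 38 had the same direction. In total 1950 of 12641 genes (15.4%) had the same sign on all 3 days, 1133 higher and 817 lower. On day 3, 7, and 14 alone, 50.7%, 51.4%, and 50.9% of measured genes were higher with d-SMG. Different days share no library. Each day enters the overlap with either other day, so these overlaps are not independent of each other.

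Of the genes past 4-fold on day 3, 25 of the 393 higher were in a muscle list, and 64 of the 773 lower were in an epidermal or hair list. Among all 13238 genes measured that day, 36 (0.272%) were in these muscle lists and 72 (0.544%) in these epidermal and hair lists. Among the largest in the higher direction were *Smco1*, *Neu2*, *Fsd2*, and *Ky*. *Neu2*, a sialidase of skeletal muscle, had 433, 6, and 4 reads in the d-SMG libraries and 6, 215, and 30 reads in the Alg libraries (log2 ratio 6.91 [5.78 to 8.37] on day 3). *Ky*, which is needed for muscle growth, had 685, 4, and 14 reads against 22, 458, and 8 reads, and *Fsd2*, a muscle protein, had 1487, 23, and 41 reads against 42, 584, and 27 reads. These 3 genes were higher with d-SMG on day 3 and lower on day 7. *Smco1* had 102 and 0 reads on day 3 and was at least 56.9-fold higher. In the lower direction the d-SMG library of day 3 held no read of *Ckmt1*, a mitochondrial creatine kinase, against 776 (at least 155-fold lower), of *Tdo2*, a tryptophan dioxygenase, against 595, of *Krt32* against 582, of *Krt28* against 546, and of the carboxypeptidase *Cpa4* against 498. *Ckmt1* had 799 and 928 reads on day 7, when it was lower with d-SMG at a log2 ratio of -0.75 [-0.89 to -0.61]. It was nearer even on day 14, with 1421 and 1241 reads (0.23 [0.12 to 0.34]).

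Shared contractile and calcium genes of skeletal muscle were higher with d-SMG in 20 of 20 members on day 3, with 18 past 4-fold, and lower in 20 of 20 on day 7, all past 4-fold. On day 14 they were divided, 10 to 10. Their median log2 ratio was 2.63, -4.34, and 0.017, against 0.015, 0.022, and 0.013 for all genes. *Acta1* had 156956, 3354, and 5786 reads in the d-SMG libraries and 49636, 56368, and 6832 reads in the Alg libraries. *Ckm*, the muscle creatine kinase, had 73934, 1172, and 2157 reads against 17355, 40263, and 3759 reads, and *Ttn*, the titin gene, had 124004, 3412, and 2024 reads against 36782, 67082, and 7685 reads. The order of the groups was thus d-SMG above Alg on day 3 and Alg above d-SMG on day 7 for each of these genes. *Myh4*, the heavy chain of the fastest fibers, alone had 1287121, 53897, and 37043 reads against 381146, 1286964, and 101380 reads. *Pvalb*, the calcium buffer of fast fibers, differed from its list on day 14 with 1928 and 229 reads (log2 ratio 3.11 [2.91 to 3.31]), and *Neb*, the nebulin gene, with 3511 and 16019 reads (-2.16 [-2.21 to -2.10]).

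The 12 genes of fast fibers followed the shared genes with medians of 2.54, -4.44, and 0.24. *Tnnc2*, *Mylpf*, *Atp2a1*, *Casq1*, and *Actn3* are in both lists, so that the likeness of the medians is partly built in. The largest member difference on day 7 was that of *Mybpc2*, the fast myosin-binding protein C, with 322 and 39789 reads (log2 ratio -7.49 [-7.65 to -7.33]). Slow fiber genes did not follow on day 3, when their median was 0.37 with 6 of 9 higher, but were lower in 10 of 10 on day 7 with a median of -3.38. *Myh7* on chromosome 15, the slow and cardiac heavy chain, had 265, 15, and 27 reads against 342, 24462, and 470 reads, and on day 7 its log2 ratio was -11.21 [-12.04 to -10.49], the largest named here for a gene with reads in both libraries. *Myl3*, the slow light chain, had 0 and 516 reads on day 7 and was at least 249-fold lower. *Tnnt1*, the slow troponin T, had 401 and 6634 reads on day 7 and 555 and 997 on day 3. These 3 genes were highest in the Alg library of day 7, whereas *Mybpc1*, *Casq2*, and *Tnni1* of the same list were highest in the d-SMG library of day 3. *Aqp4*, the water channel of fast fibers, had 609, 1, and 9 reads against 24, 814, and 11 reads, and *Smtnl1* had 13859, 71, and 321 reads against 2793, 10099, and 1805 reads.

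Genes of muscle regeneration and denervation had another course. They were higher in 13 of 13 members on day 3 (median 0.87), lower in 8 of 11 on day 7 (-0.57), and higher in 10 of 10 on day 14 (1.97), when the shared contractile genes had a median of 0.017. Counted with at least 200 reads, the median of day 14 was 0.54 above that of all genes. *Myh3* on chromosome 10, the embryonic myosin heavy chain, had 7052, 7319, and 9929 reads in the d-SMG libraries and 8738, 6577, and 849 reads in the Alg libraries, so that on day 14 its log2 ratio was 3.58 [3.48 to 3.68]. *Myh8*, the perinatal heavy chain, had 1938, 4326, and 2827 reads against 1475, 8537, and 146 reads, with a log2 ratio of 4.31 [4.07 to 4.56] on day 14. The acetylcholine receptor subunit *Chrna1* had 105 and 11 reads on day 14 (3.29 [2.39 to 4.33]), the fetal subunit *Chrng* had 32 and 1 (5.03 [2.45 to 10.38]), and the fusion gene *Mymx* had 67 and 5 (3.78 [2.48 to 5.45]). *Chrng* lay below the limit of 50 reads that day and is not among the 10 members counted. The regulator of myogenesis *Myog* had 3511, 349, and 219 reads against 3220, 594, and 200 reads, and its log2 ratio on day 14 was 0.17 [-0.12 to 0.45]. Embryonic myosin, receptor, and fusion genes were thus higher on day 14 in the same pair of libraries in which this regulator lay near 0.

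**Figure D3:**
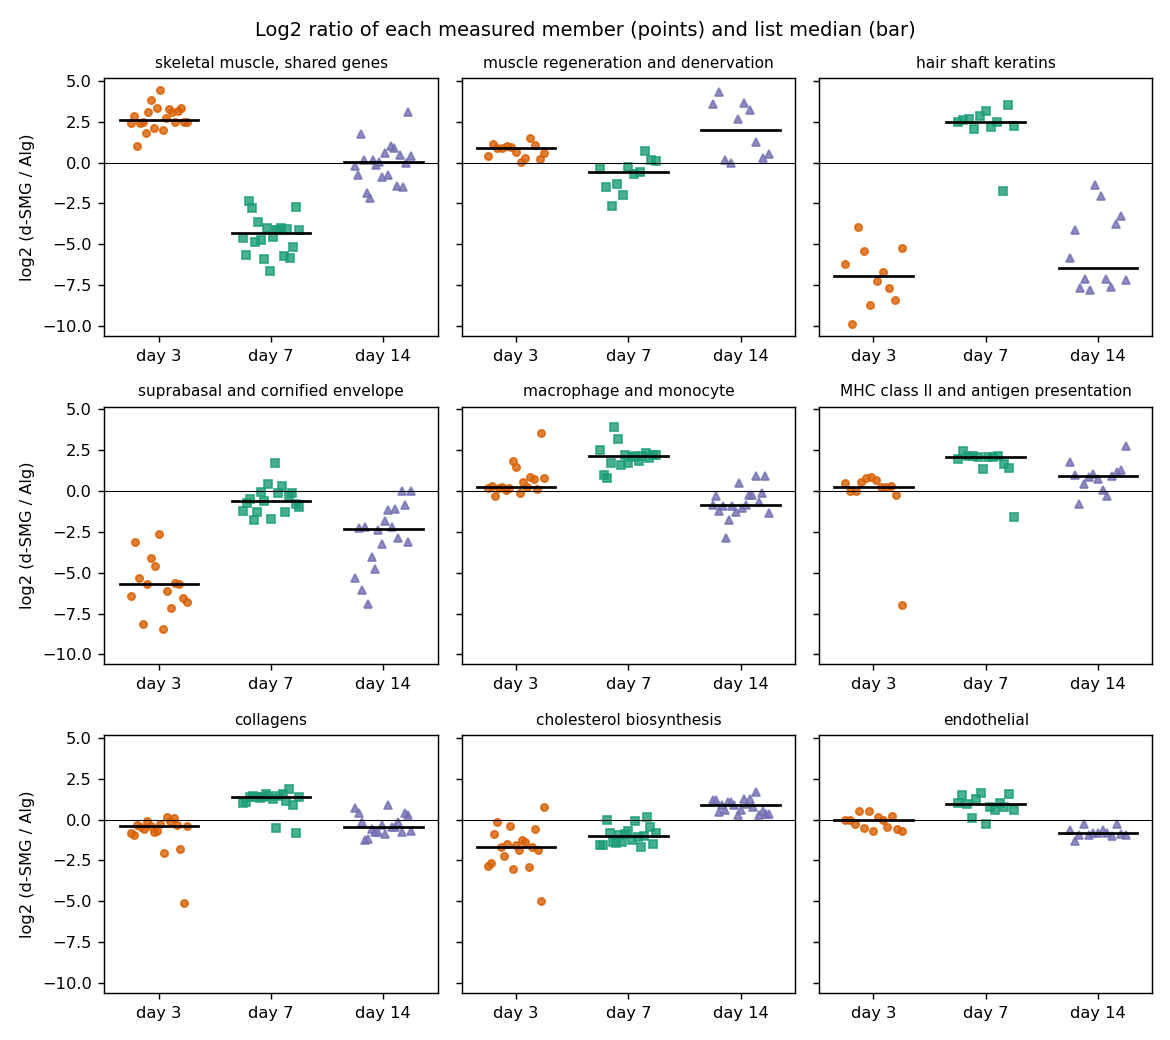
Log2 ratio of d-SMG to Alg for each member with at least 50 reads (points) and the median (bar) of 9 gene lists on day 3 (circles), 7 (squares), and 14 (triangles), 1 library per group and day. Shared contractile and calcium genes of muscle lie above 0 on day 3 and below 0 on day 7. Hair shaft keratins lie below 0 on day 3 and 14, and 10 of 11 lie above 0 on day 7.

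Basal and wound keratinocyte genes were lower with d-SMG in 13 of 13 members on day 3, 12 of them past 4-fold, with a median of -5.10. On day 7 the median was -0.68 with 10 of 13 lower, and on day 14 it was 0.43 with 10 of 13 higher. *Krt14* had 263, 100086, and 168013 reads in the d-SMG libraries and 106704, 128645, and 122790 reads in the Alg libraries. *Krt17*, a keratin of hair follicles and activated keratinocytes, had 48, 15802, and 40829 reads against 21908, 16728, and 29037 reads, and *Krt6a*, which is induced at wound edges, had 2, 2584, and 2493 reads against 1782, 2297, and 3708 reads. *Krt16*, its partner, had 2, 2251, and 1002 reads against 728, 1729, and 3102 reads and was lower on day 14 at a log2 ratio of -1.60 [-1.70 to -1.49]. *Lamb3*, a chain of laminin 332, which anchors basal cells, had 30, 1281, and 3123 reads against 1473, 1754, and 1085 reads, and *Tp63*, the master regulator of the epidermal lineage, had 131, 1974, and 5250 reads against 3215, 2722, and 2981 reads. On day 7 and 14 no member was past 4-fold.

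Suprabasal and cornified envelope genes lay lower with d-SMG on every day. Their median log2 ratio was -5.69 on day 3 (15 of 15 lower), -0.61 on day 7 (14 of 17 lower), and -2.30 on day 14 (17 of 18 lower, 12 past 4-fold). Of the 19 members tested over the days, 6 were lower at an unadjusted p under 0.05 and none was called, against 159 of all 14928 genes in either direction. *Krt10* had 26, 1859, and 405 reads in the d-SMG libraries and 1749, 2114, and 28114 reads in the Alg libraries, and *Krt1*, its partner, had 15, 2206, and 538 reads against 2238, 3515, and 22312 reads. Both were highest in the Alg library of day 14, with log2 ratios of -6.08 [-6.23 to -5.94] and -5.34 [-5.47 to -5.22]. *Loricrin*, the main protein of the cornified envelope, had 1, 33, and 3 reads against 39, 78, and 433 reads, *Ivl*, involucrin, had 1, 198, and 674 reads against 639, 194, and 3114 reads, and *Calml5*, a calcium-binding protein of late differentiation, had 3, 937, and 662 reads against 528, 708, and 5810 reads. *Sprr1a*, a small proline-rich envelope protein, was among the 3 members higher on day 7 with 455 and 97 reads (log2 ratio 1.69 [1.37 to 2.03]). *Abca12* and *Klk5*, the lipid transporter and the desquamation protease of the upper layers, lay near 0 on day 14, with log2 ratios of -0.0041 [-0.17 to 0.17] and 0.0073 [-0.57 to 0.58]. In the control libraries the share of cornified genes was 0.0578%, 0.0146%, and 0.549% on day 3, 7, and 14, and in the GAG libraries it was 0.0924%, 0.0891%, and 0.0646%.

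Hair shaft keratins were lower with d-SMG in 10 of 10 members on day 3, higher in 10 of 11 on day 7, and lower in 12 of 12 on day 14, with medians of -6.97, 2.46, and -6.48. On day 3, 4 members had no read in the d-SMG library, and with these at their bound the median was -5.33. *Krt85*, an early keratin of the hair matrix and cuticle, had 3, 660, and 885 reads in the d-SMG libraries and 1902, 39, and 8638 reads in the Alg libraries. *Krt34*, a keratin of the upper cortex, had 1, 249, and 25 reads against 42, 23, and 5829 reads, *Krt83* had 0, 146, and 26 reads against 124, 18, and 5220 reads, and *Krt33a* had 2, 105, and 16 reads against 60, 11, and 3401 reads. *Krt35*, the earliest keratin of the cortex, had 3, 885, and 1631 reads against 2416, 69, and 4308 reads, so that on day 14 its log2 ratio of -1.37 [-1.45 to -1.28] was far smaller than that of *Krt34* (-7.83 [-8.46 to -7.27]). These genes have close copies between which reads may be divided.

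Genes of the inner root sheath and companion layer had medians of -7.54, 2.80, and -2.34, and on day 3, when 4 had no read with d-SMG, the median was -6.58 with these at their bound. *Tchh*, trichohyalin, had 248, 48214, and 50602 reads in the d-SMG libraries and 39647, 4946, and 561676 reads in the Alg libraries, and the Alg library of day 14 was the highest. *Krt71* had 23, 7694, and 8555 reads against 8973, 1153, and 68770 reads, *Krt72* had 0, 1215, and 493 reads against 80, 31, and 4138 reads, and *Krt26* had 0, 589, and 180 reads against 113, 12, and 2388 reads. *Krt75*, the companion layer keratin, had a log2 ratio of -0.49 [-0.58 to -0.41] on day 14, nearer 0 than these. The regulators of the follicle had a median of -3.45 on day 3 (11 of 11 lower), 0.99 on day 7, and -0.66 on day 14. *Dlx3*, which drives the hair shaft and root sheath genes, had 0, 125, and 192 reads against 312, 8, and 422 reads, *Lef1*, the Wnt effector of the hair matrix, had 8, 215, and 517 reads against 946, 71, and 837 reads, and *Shh*, which the matrix secretes in growing follicles, had 13, 13, and 33 reads against 173, 8, and 85 reads. On day 14 *Lhx2*, a regulator of follicle stem cells, had 174 and 97 reads, opposite to the keratins. *Mt4*, the metallothionein of stratified epithelia, had 1, 229, and 414 reads against 1675, 7, and 2846 reads.

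Sebaceous gland lipid genes were lower with d-SMG on day 3 and 7 and higher on day 14, with medians of -4.01, -1.72, and 1.10 and with 10 of 12, 12 of 12, and 1 of 12 members lower. *Awat1*, which makes wax esters, had 6, 369, and 1672 reads in the d-SMG libraries and 582, 924, and 429 reads in the Alg libraries. *Elovl4*, the elongase of very long fatty acids, had 13, 3567, and 11671 reads against 4139, 8257, and 3154 reads, and *Cidea*, a lipid droplet protein, had 61, 521, and 1910 reads against 797, 1226, and 453 reads. The d-SMG library of day 14 was the highest for these 3 genes. Cholesterol biosynthesis genes likewise had 18 of 19 lower on day 3 (median -1.66), 18 of 19 lower on day 7 (-1.04), and 19 of 19 higher on day 14 (0.88), where none was past 4-fold. *Hmgcs1* had 358, 3491, and 9530 reads against 4256, 7141, and 4324 reads. *Ebp*, the sterol isomerase, had the largest ratio of day 14 with 833 and 264 reads (1.69 [1.49 to 1.90]). *Idi2*, an isopentenyl isomerase, had 121 and 0 reads on day 14 and was at least 41.3-fold higher.

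Adipocyte genes were lower in 8 of 12, 9 of 12, and 10 of 13 members, with medians of -1.02, -0.30, and -0.86. *Adipoq*, adiponectin, had 32, 588, and 289 reads against 1604, 533, and 1530 reads, and *Plin1*, which coats the lipid droplet, had 52, 449, and 265 reads against 1099, 467, and 640 reads. *Fabp4*, which is also found in capillaries and macrophages, had 11765, 26559, and 7350 reads against 34697, 7527, and 23701 reads and was higher with d-SMG on day 7. *Slc2a4*, the insulin-responsive glucose transporter of muscle and fat, had 955, 90, and 88 reads against 245, 437, and 104 reads, which followed the muscle genes.

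Macrophage and monocyte genes were higher with d-SMG in 17 of 17 members on day 7, 11 past 4-fold, with a median of 2.16, and lower in 15 of 18 on day 14, with a median of -0.83. On day 3 the median was 0.26 with 15 of 17 higher. *Cd163* on chromosome 4, the hemoglobin scavenger receptor of resident and repair macrophages, had 5025, 21096, and 2558 reads in the d-SMG libraries and 7101, 950, and 19352 reads in the Alg libraries. Its log2 ratio was 0.24 [0.19 to 0.30] on day 3, 3.94 [3.84 to 4.03] on day 7, and -2.89 [-2.95 to -2.83] on day 14. *Mrc1*, the mannose receptor, had 2511, 12726, and 2361 reads against 4052, 947, and 8226 reads, and *C1qa*, a subunit of complement C1q, had 2347, 10970, and 4422 reads against 4307, 1791, and 9399 reads. For these 3 genes the d-SMG library of day 7 and the Alg library of day 14 were the highest, and the Alg library of day 7 the lowest. *Spp1*, osteopontin, had another order with 15224, 19663, and 1515 reads against 2200, 2902, and 1705 reads, high with d-SMG on day 3 and 7 (log2 ratio 3.53 [3.47 to 3.60] and 2.22 [2.17 to 2.28]) and -0.14 on day 14. *Trem2*, a lipid receptor of macrophages, had 303, 1027, and 194 reads against 298, 142, and 106 reads and was higher with d-SMG on all 3 days, though past 2-fold on day 7 alone. *Arg1*, arginase, had 166, 1195, and 133 reads against 161, 175, and 342 reads.

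Neutrophil genes had medians of 0.31, 1.23, and -0.25. *Csf3r*, the receptor for G-CSF, had 75, 398, and 71 reads against 99, 28, and 171 reads, highest in the d-SMG library of day 7. *S100a8* and *S100a9*, which neutrophils and activated keratinocytes make, were lower on day 3 with 9 and 510 reads and 46 and 1426 reads, together with the keratins. *Lcn2*, a siderophore-binding protein of both cell types, had 104 and 1439 reads on day 14 (-3.76 [-4.06 to -3.47]). *Mpo*, *Elane*, *Camp*, and *Ltf*, which define neutrophil precursors and granules, had at most 8 reads in any of the 6 libraries. Mast cell genes were lower in 8 of 8 members on day 3, with a median of -2.92, and the median was -0.35 on day 7 and -0.76 on day 14. *Cma1*, mast cell chymase, had 8, 180, and 109 reads against 312, 183, and 240 reads.

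T cell genes had a median of -0.10 on day 3, and were higher in 13 of 13 members on day 7 (1.86) and in 8 of 10 on day 14 (1.30). *Cd3d*, a chain of the T cell receptor complex, had 6, 209, and 262 reads in the d-SMG libraries and 44, 40, and 60 reads in the Alg libraries, and *Il7r*, the interleukin-7 receptor, had 117, 686, and 689 reads against 210, 217, and 179 reads. Both d-SMG libraries of day 7 and 14 were above both Alg libraries of those days. The 2 members lower on day 14 were *Cd8a*, with 81 and 155 reads, and *Cd4*, which macrophages of the rat also carry, with 2510 and 4048 reads. Of the B cell and plasma cell genes, 1, 1, and 2 of 9 had enough reads on day 3, 7, and 14. *Jchain*, which joins secreted antibodies, had 0, 32, and 117 reads against 15, 13, and 2 reads, and *Cd79a*, a chain of the B cell receptor, had 4, 28, and 23 reads against 16, 15, and 11 reads.

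The antigen presentation list was higher with d-SMG in 9 of 12 members on day 3 (median 0.27), 11 of 12 on day 7 (2.08), and 11 of 13 on day 14 (0.91), and 4 of 13 members tested had an unadjusted p under 0.05 over the days, all higher and none called, beside the 159 of 14928 over all genes. *Cd74*, the invariant chain, had 4627, 13599, and 11060 reads in the d-SMG libraries and 5513, 2423, and 3347 reads in the Alg libraries, and its log2 difference over the days was 1.41 ± 0.41. *RT1-Bb* had 1038, 2850, and 2513 reads against 992, 464, and 1390 reads (1.25 ± 0.37), and *RT1-Da* had 814, 4513, and 2721 reads against 1367, 571, and 1386 reads (1.14 ± 0.55). *RT1-Db1* went the other way on day 14 with 2594 and 4557 reads, where reads of the polymorphic RT1 genes may be divided between copies. *Ciita*, the transactivator of class II genes, had 117, 533, and 174 reads against 164, 87, and 170 reads. *Cd207*, langerin of Langerhans cells in the epidermis, had 0, 89, and 373 reads against 77, 185, and 55 reads, so that it was lower on day 3 and 7 and higher on day 14 (log2 ratio 2.80 [2.38 to 3.23]). On day 14 macrophage genes and class II genes thus lay on opposite sides, with medians of -0.83 and 0.91.

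Inflammatory cytokines and their inhibitors had medians of 0.36, 0.74, and 0.032 over 10, 10, and 13 measured members of 21. *Il1b* had 58, 326, and 395 reads against 133, 128, and 424 reads, and *Il18* had 85, 179, and 96 reads against 81, 57, and 63 reads. *Tnf*, with 5, 38, and 22 reads against 17, 7, and 18 reads, and *Il6*, with 28, 10, and 49 reads against 26, 1, and 78 reads, had few reads. On day 7 the log2 ratio of *Tnf* was 1.90 [0.72 to 3.31]. *Il33*, the alarmin of stromal and epithelial cells, had 638, 2622, and 464 reads against 1669, 521, and 1048 reads, higher with d-SMG on day 7 and lower on the other days. *Il12b*, the shared subunit of IL-12 and IL-23, was higher on day 14 with 104 and 5 reads (4.41 [3.14 to 6.07]), and *Il1a*, which keratinocytes store, was lower with 2 and 54 reads (-4.72 [-7.80 to -2.80]). *Socs3*, the feedback inhibitor of cytokine receptors, had 2533, 726, and 2697 reads against 1164, 612, and 1398 reads. *Nos2*, the inducible nitric oxide synthase, had 14, 104, and 34 reads against 39, 32, and 107 reads.

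Chemokines had medians of -0.25, 0.44, and 0.72. *Ccl2*, the ligand of the receptor CCR2, had 184, 144, and 441 reads in the d-SMG libraries and 152, 73, and 144 reads in the Alg libraries, higher with d-SMG on every day and past 2-fold on day 3 and 14. *Ccl19* and *Ccl21*, which guide cells that carry CCR7, were lower on day 3 and higher on day 14. *Ccl19* had 1, 47, and 280 reads against 44, 17, and 40 reads, and *Ccl21* had 82, 761, and 808 reads against 695, 323, and 358 reads. *Cxcl6*, a chemokine for neutrophils, had 99, 552, and 100 reads against 197, 127, and 360 reads, and *Cxcl12*, a stromal chemokine, had 775, 4814, and 1448 reads against 1944, 1128, and 2022 reads, both higher with d-SMG on day 7 and lower on day 14. Interferon response genes were lower in 17 of 19 members on day 3 and 15 of 24 on day 7, with medians of -0.91, -0.46, and 0.18. *Mx2*, an antiviral GTPase, had 115, 933, and 1461 reads against 776, 2576, and 551 reads, and *Isg15*, a ubiquitin-like modifier, had 51, 314, and 467 reads against 211, 526, and 203 reads, lower on day 3 and 7 and higher on day 14.

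Matrix genes made day 7 the day of higher values with d-SMG. Collagens were higher in 16 of 18 members on day 7 and lower in 16 of 18 on day 3 and 13 of 18 on day 14, with medians of -0.42, 1.36, and -0.47, and on day 7 and 14 none was past 4-fold. *Col1a1* had 19698, 158312, and 102085 reads in the d-SMG libraries and 59529, 53409, and 63389 reads in the Alg libraries. *Col3a1*, the fibrillar collagen of early repair, had 39087, 277237, and 104130 reads against 82464, 73741, and 120818 reads, with a log2 ratio of 1.37 [1.36 to 1.39] on day 7. *Col4a1*, a basement membrane chain, had 19051, 73848, and 21352 reads against 43262, 18817, and 51951 reads, and on day 14 was lower at -1.25 [-1.27 to -1.23], whereas *Col7a1*, which makes the anchoring fibrils of the epidermis, had 525, 8287, and 5181 reads against 3581, 8365, and 2853 reads and was higher at 0.90 [0.83 to 0.96]. *Col6a5*, which was not in the list, had 18, 4506, and 130 reads against 112, 115, and 42 reads, and was among the 5 largest in the higher direction on day 7 at 4.76 [4.49 to 5.04]. Noncollagen matrix genes had medians of -0.25, 1.13, and -0.26, with 18 of 19 higher on day 7. *Lum*, lumican, had 1014, 10192, and 3298 reads against 2959, 1974, and 4656 reads, *Postn*, periostin, had 2046, 37221, and 7018 reads against 6422, 10838, and 4949 reads, and *Dcn*, decorin, had 2389, 17643, and 10619 reads against 14031, 5633, and 20926 reads.

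Proteases of the matrix and their inhibitors had medians of -1.82, 0.96, and -0.095. *Mmp3*, stromelysin, had 64, 1757, and 2675 reads against 2715, 372, and 3112 reads, *Mmp2*, the gelatinase of fibroblasts, had 1083, 14583, and 8377 reads against 10644, 4620, and 13136 reads, and *Mmp13*, a collagenase, had 6, 273, and 255 reads against 148, 403, and 279 reads. These were lower with d-SMG on day 3. *Mmp12*, the macrophage elastase, had 45, 1782, and 303 reads against 67, 303, and 87 reads, higher on day 7 and 14, and *Timp1*, which inhibits them, had 2542, 4918, and 2660 reads against 3668, 1140, and 6122 reads. Because the mucus holds a glycosaminoglycan, genes of glycosaminoglycan synthesis and breakdown were listed too, and their medians were -0.33, 0.54, and 0.095. *Has3*, a hyaluronan synthase of epidermis, had 4, 36, and 29 reads against 129, 17, and 93 reads, *Cemip*, which depolymerizes hyaluronan, had 84, 331, and 59 reads against 50, 63, and 201 reads, and *Sulf1*, a sulfatase of heparan sulfate, had 1424, 3599, and 1235 reads against 3631, 752, and 3303 reads. *Cd44*, the hyaluronan receptor, had 2240, 3579, and 3169 reads against 3229, 2113, and 2803 reads and log2 ratios of 0.21, 0.22, and 0.21, the most even of the list.

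Endothelial genes were higher with d-SMG in 12 of 13 members on day 7 and lower in 13 of 13 on day 14, with medians of -0.055, 0.95, and -0.84, none past 4-fold. *Cdh5*, VE-cadherin, had 1424, 4382, and 677 reads in the d-SMG libraries and 2404, 1062, and 1706 reads in the Alg libraries, and its log2 ratio was 1.51 [1.41 to 1.61] on day 7 and -1.30 [-1.43 to -1.17] on day 14. *Pecam1* had 2329, 5127, and 1621 reads against 4045, 1764, and 2614 reads, and *Plvap*, the protein of fenestrated vessels, had 1288, 3969, and 1419 reads against 3288, 934, and 2735 reads. *Vwf*, von Willebrand factor, was lower on every day with 2737, 3182, and 1848 reads against 7523, 2625, and 3285 reads. Growth factors had medians of 0.35, 0.55, and -0.11. *Vegfa* had 2824, 1827, and 1746 reads against 3604, 2049, and 1703 reads, *Igf1* had 476, 2858, and 628 reads against 1084, 425, and 1130 reads, *Tgfb1* had 125, 285, and 198 reads against 180, 114, and 115 reads, and *Pdgfa* had 2093, 1122, and 818 reads against 1350, 1132, and 863 reads. *Igf1* was past 4-fold on day 7 (2.21 [2.07 to 2.36]). *Egf* was past 4-fold in opposite directions on day 3 and 7, with 380 and 59 reads and 49 and 160 reads, as the muscle genes were.

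Myofibroblast and smooth muscle genes had medians of -0.67, -0.29, and 0.17. *Acta2*, the actin of myofibroblasts, which contract the wound, had 2337, 4492, and 2148 reads against 5367, 2187, and 2485 reads. *Myh11*, the smooth muscle heavy chain, had 25228, 40287, and 49772 reads against 102580, 59575, and 34334 reads and *Cnn1*, calponin, had 202, 388, and 749 reads against 1043, 533, and 358 reads, both lower on day 3 and 7 and higher on day 14. Proliferation genes were lower in 18 of 18 members on day 3 and higher in 16 of 18 on day 7, with medians of -0.77, 0.68, and -0.19. *Mki67* had 2550, 5635, and 5193 reads against 6607, 2746, and 6062 reads, and *Top2a*, the topoisomerase of dividing cells, had 1030, 4348, and 3971 reads against 5014, 1794, and 5509 reads. *Aurka*, the Aurora A kinase, was the opposite of its list on day 7 and 14 with 72, 251, and 585 reads against 275, 453, and 253 reads.

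**Figure D4:**
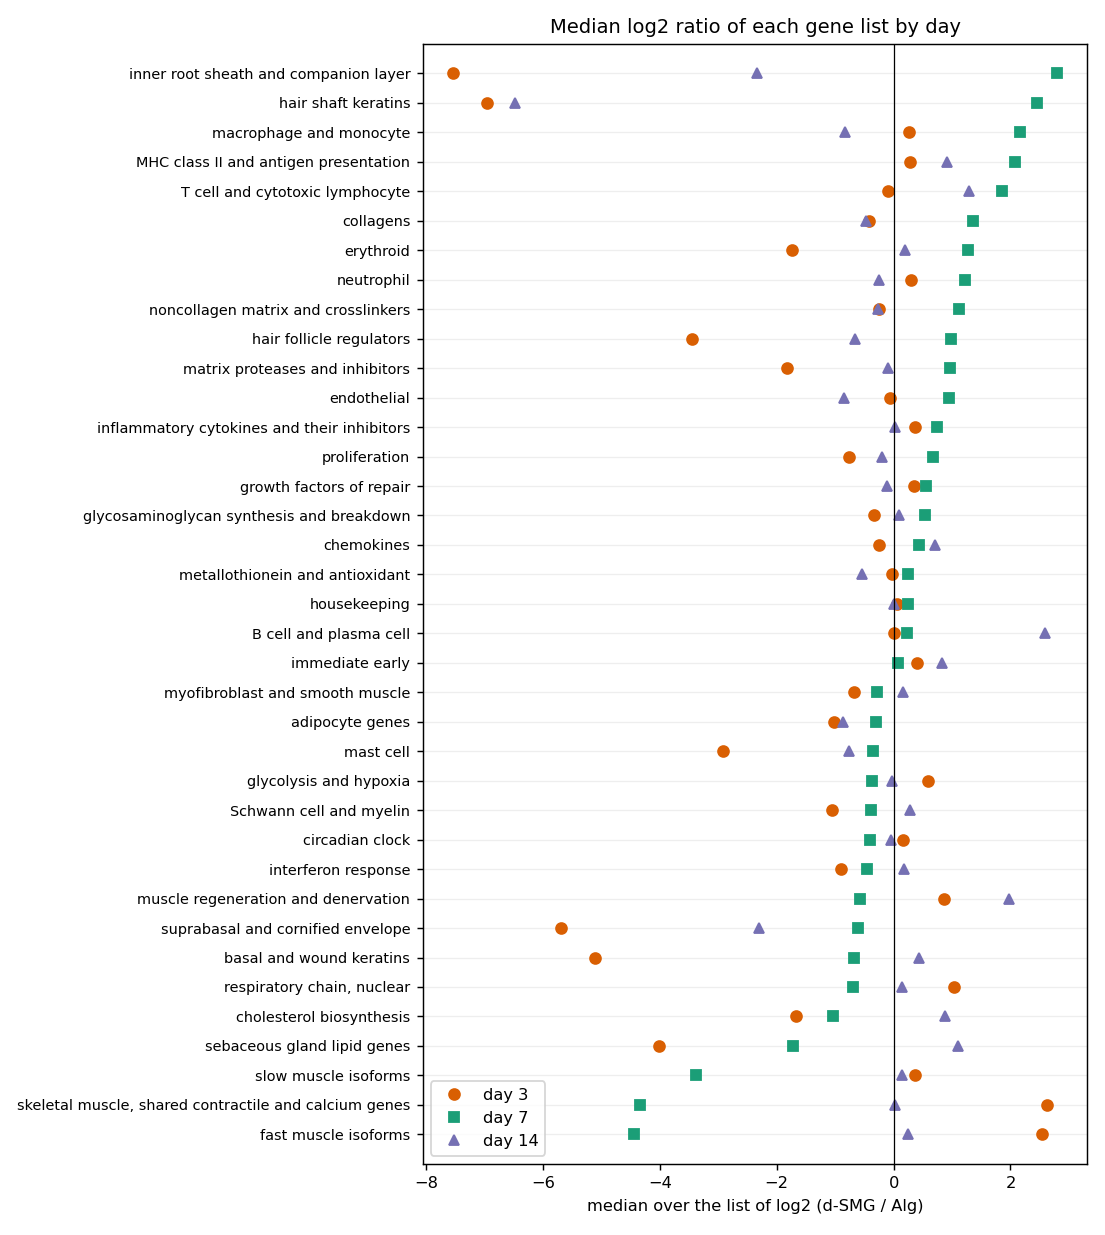
Median log2 ratio of d-SMG to Alg over the members of 37 gene lists, sorted by the median of day 7, with circles for day 3, squares for day 7, and triangles for day 14. Macrophage and antigen presentation genes lie at 2.16 and 2.08 on day 7 and the lists of shared and fast muscle genes at -4.34 and -4.44 on the same day.

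Immediate early genes, which a stimulus or the handling of tissue induces within minutes, were higher with d-SMG in 15 of 15 members on day 14, with a median of 0.83, against 0.40 on day 3 and 0.077 on day 7. *Fosb* had 17, 37, and 365 reads in the d-SMG libraries and 21, 4, and 10 reads in the Alg libraries, so that its log2 ratio on day 14 was 5.22 [4.33 to 6.30]. *Fos* had 392, 974, and 461 reads against 221, 414, and 268 reads and *Dusp1*, a phosphatase of MAP kinases, had 206, 369, and 173 reads against 169, 160, and 76 reads, both higher on every day. *Nr4a1*, a nuclear receptor, was lower on day 7 as the muscle genes were and was higher on day 3 and 14, with 352, 59, and 209 reads against 110, 300, and 40 reads. Nuclear genes of the respiratory chain were higher in 17 of 17 members on day 3 and lower in 17 of 17 on day 7, with medians of 1.03, -0.69, and 0.15, and the muscle subunit *Cox6a2* had 1960, 70, and 64 reads against 497, 809, and 48 reads. Glycolysis genes had medians of 0.60, -0.37, and -0.033. *Aldoa*, the aldolase of muscle, had 26988, 3661, and 3921 reads against 8574, 20478, and 3310 reads, whereas *Eno1*, the enolase of most other cells, had 1907, 5568, and 5283 reads against 4257, 2873, and 5346 reads. The muscle share of the same libraries was 23.2% and 6.26% on day 3 and 0.992% and 17.8% on day 7, and its part in these differences was not tested.

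Among the remaining lists, erythroid genes had medians of -1.74, 1.27, and 0.19 over 4, 6, and 5 measured members. Schwann cell genes had -1.05, -0.39, and 0.28, metallothionein and antioxidant genes -0.031, 0.25, and -0.54, and clock genes 0.17, -0.40, and -0.051. Housekeeping genes had 0.059, 0.24, and 0.014. The 21 genes that the study names, some of them for its analysis of these libraries, had medians of 0.15, 0.80, and 0.014 over 16, 16, and 18 measured members, with 11, 12, and 9 higher, and are no independent evidence of a direction. Over the days 0 of them were called. Those not yet described were *Cd86*, a costimulatory ligand, with 27, 31, and 59 reads against 14, 14, and 32 reads, *Jak3*, a kinase of lymphoid cytokine receptors, with 88, 180, and 161 reads against 139, 92, and 67 reads, and *Tlr5*, the flagellin receptor, with 90, 262, and 93 reads against 147, 145, and 119 reads. *Cd86* had log2 ratios of 1.69, 0.61, and 0.92 and was thus higher with d-SMG on every day. *Vegfb* had 283, 268, and 161 reads against 275, 212, and 96 reads, *Pdgfb* had 299, 298, and 150 reads against 321, 182, and 166 reads, *Il10* had 5, 20, and 23 reads against 4, 9, and 8 reads, and *Fgf3* had 0, 5, and 0 reads against 0, 2, and 10 reads. The largest differences in the lower direction of day 14 were those of hair keratins, of *Lyg2*, a lysozyme gene, with 1 and 604 reads (log2 ratio -9.20 [-14.51 to -6.72]), and of *Krtap14*, a keratin-associated protein, with 0 and 129 reads, at least 42.0-fold lower.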

How the data were processed

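Total RNA of wound tissue was extracted with TRIzol, depleted of rRNA, made into stranded libraries, and sequenced in paired ends. Deposited were raw read counts per gene and FPKM values, both made by the authors, whose processing notes name bcl2fastq, FastQC, TopHat2, and edgeR. The versions, the genome build, the counter, and whether counting used strand are not given in the sources used here, so that overlapping or near-identical genes are uncertain. The tables held 25620 genes (counts) and 25524 genes (FPKM), and 1 further column of values in each matched no sample and was not used.

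Counts of the 6 libraries were scaled by TMM, and genes kept by filterByExpr were fitted with day and treatment by the robust quasi-likelihood test of edgeR 4.0.16 (R 4.3.3), with 2 residual degrees of freedom and Benjamini-Hochberg adjustment. DESeq2 1.42.0 and limma 3.58.1 on log2(FPKM + 1) or log2(FPKM + 0.1) were alternatives. Per day there was no test, and ratios of scaled counts with a prior of 0.5 reads were called past 4-fold among genes whose 2 libraries held 50 or more reads together. Reported ratios of single genes have no prior, 95% intervals by Clopper and Pearson, and a floor of 3 reads where a library had 0. Such intervals cover the counting error only. Named, without provisional symbols, were the 10 genes with the smallest p-values in each direction, the 5 largest ratios per day and direction with at least 100 reads, the genes past 2-fold on all days, the genes the study names, and up to 4 members of each of 39 lists by size of ratio (570 of 576 symbols were found). Further list members, among them defining markers, were chosen after their values were seen. The comparison, members, and lists were chosen with earlier results of these data known. The test was run on simulated data in which a changed gene had the same fold on every day and the day had no effect. That check does not cover differences that change with the day, and it does not make the count of 0 genes evidence of no difference. The deviations of same-day libraries from their group means correlated at 0.258, -0.484, and 0.319 on day 3, 7, and 14. Between different days the correlations ran from -0.546 (d-SMG of day 3 with Alg of day 14) to 0.565 (d-SMG of day 7 with Alg of day 14). The day thus pairs the libraries by label, and a deviation shared by same-day libraries was not seen on every day. The labels do not tie libraries to animals, so p-values measure the spread between these libraries. A few genes that the rule would name are not reported here.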

Additional observations from a re-analysis of the deposited data

Results flagged for a closer look

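The following medians of the log2 ratio of d-SMG to Alg lay past 2-fold on opposite sides of 0 on different days. The difference between days was not tested, since each day had 1 library per group. For the shared muscle genes the median was 2.63 on day 3 and -4.34 on day 7. For the fast muscle isoforms, some of which are also in the shared list, it was 2.54 and -4.44. For hair shaft keratins it was -6.97 on day 3, 2.46 on day 7, and -6.48 on day 14, and for the inner root sheath and companion layer -7.54, 2.80, and -2.34. For sebaceous gland lipid genes it was -4.01 and -1.72 on day 3 and 7 and 1.10 on day 14, and for erythroid genes -1.74 on day 3 and 1.27 on day 7.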

How the results depend on the processing

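The count of genes that differed over the 3 days was 0 in every edgeR and limma setting run (RLE factors, library size alone, no filter, all 12 libraries, muscle genes removed before scaling, FPKM with 1 or 0.1 added, and leaving out each day) and 8 with DESeq2, against 159 at an unadjusted p under 0.05 in edgeR. Without the replicate block, that is without the pairing by day, it was also 0, with 239 at an unadjusted p under 0.05. When each day was left out, the lowest and highest count called were 0 and 0. Between 223 of 15104 and 396 of 14962 genes then had an unadjusted p under 0.05. These fits have fewer residual degrees of freedom than the 2 of the full fit, so that their counts of 0 are a weak check.

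Genes past 4-fold on day 3 numbered 212 higher by library size alone, 105 and 199 with FPKM plus 1 and 0.1, and 1387 past 2-fold, and 1312 and 402 lower with at least 10 and 200 reads, 368 with FPKM plus 1, and 1573 past 2-fold. On day 7 there were 417 higher by library size alone, 412 and 121 with at least 10 and 200 reads, 118 and 318 with FPKM plus 1 and 0.1, and 1248 past 2-fold, and 197 lower with FPKM plus 1 and 1239 past 2-fold. On day 14 there were 298 and 49 higher with at least 10 and 200 reads, 51 with FPKM plus 1, and 676 past 2-fold, and 405 and 136 lower with at least 10 and 200 reads, 142 with FPKM plus 1, and 962 past 2-fold. Genes past the fold on all 3 days numbered 1 higher and 8 lower by library size alone, 23 and 41 with at least 10 reads, 0 and 4 with FPKM plus 1, 1 and 6 with FPKM plus 0.1, and 0 and 1 past 4-fold, with 8 lower at 200 reads. Over only 2 of the days, a setting chosen after seeing the data, they numbered 73 to 77 higher and 122 to 245 lower. The cause was not tested beyond the fewer or more genes that such limits admit.

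Relative to all genes, list medians moved to 0.54 for muscle regeneration on day 14 with at least 200 reads, -1.96 for the cornified envelope on day 3 with FPKM plus 1, -0.28 for cytokines on day 3 with 10 reads and 0.33 on day 7 with FPKM plus 1, -1.55 for mast cells and -0.091 for housekeeping genes on day 3 with FPKM plus 1, and -2.94 for the skin genes on day 3 with 10 reads. The median of B and plasma cells on day 14 was 0.89 with 10 reads, 0.95 with FPKM plus 1, and -0.41 with 200 reads, where it rests on few genes. The mean muscle share difference was 0.893 percentage points by summed FPKM against -0.111 by reads, both far below its SD.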
